A study of Mus musculus with 3 samples.

Results

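The CXC chemokine genes were examined in cytosolic RNA of mouse macrophages: 10 genes, chosen by symbol, of the 55536 genes in the deposited tables. The 10 were placed in 3 groups by how they are usually regulated. Cxcl1, Cxcl2 and Cxcl3 formed the NF-kB type, Cxcl9, Cxcl10 and Cxcl11 the interferon type, and Cxcl12, Cxcl14, Cxcl16 and Pf4 the constitutive group. The group names come from textbook knowledge and were not derived from these libraries. The cells were bone-marrow-derived macrophages of strain C57BL/6J, grown from marrow in culture, and every library had the same history. They were exposed for 12 h to Lipid A at 100 ng/ml, the TLR4-activating portion of lipopolysaccharide, kept without it for 12 h and then challenged for 10 min at the same 100 ng/ml. Total RNA was taken from the cytosol and ribosomal RNA was removed before 3 libraries were sequenced, labelled biological replicates 1, 2 and 3. The libraries share 1 donor identifier, and sex and age are given as not collected. Nothing says that separate animals gave them, so p-values measure only the spread between these libraries. With no unstimulated or singly stimulated group analysed here, every value is a level in 1 condition and not a response to Lipid A.

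CXC chemokines are small secreted proteins that guide leukocytes along a gradient by binding G-protein-coupled receptors. Those of the first group carry the ELR motif, bind Cxcr2 and draw neutrophils. Those of the second lack it, bind Cxcr3 and draw activated T cells and natural killer cells. In macrophages stimulated through TLR4, Cxcl1 and Cxcl2 are rapid targets of NF-kB, and Cxcl10 is induced through IRF3 and through the interferon-beta that the cells release.

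The libraries held 31968675, 53094481 and 57070432 expected counts over genes in replicates 1, 2 and 3. Replicate 1, the shallowest, stood apart. All 5 RNAs of a list known to stay in the nucleus were highest there, and their summed level was 1435 TPM against 133 and 170. Malat1, the highest of them, stood at 1333, 118 and 152 TPM, Neat1 at 66.0, 13.9 and 17.6, Xist at 32.6, 0.42 and 0.35, and Kcnq1ot1, the lowest, at 0.46, 0.01 and 0.01. The members are therefore given by library, most other genes as a mean with its SD, and the part of this difference in the results was not tested. The macrophage label was checked against markers: 8 of 8 exceeded 10 TPM, with Lyz2 at 2989 ± 197, Cd68 at 670 ± 65.2, Adgre1 at 653 ± 160 and the lowest, Mertk, at 41.1 ± 8.75 TPM (SD, n = 3). In bulk RNA, fewer cells of a type and less RNA per cell cannot be told apart.

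The positions of the genes follow the NF-kB and interferon types but not the constitutive group. On mm10, 7 of the 10 lie on chromosome 5. The NF-kB type shares 1 cluster on the plus strand with Pf4: Pf4 (ENSMUSG00000029373.7) at chr5:90772435-90773383, Cxcl3 (ENSMUSG00000029379.10) at chr5:90786103-90789600, Cxcl1 (ENSMUSG00000029380.11) at chr5:90891241-90893115 and Cxcl2 (ENSMUSG00000058427.10) at chr5:90903871-90905938. The interferon type lies further along the same chromosome on the minus strand, with Cxcl9 (ENSMUSG00000029417.9) at chr5:92321347-92328079, Cxcl10 (ENSMUSG00000034855.13) at chr5:92346638-92348889 and Cxcl11 (ENSMUSG00000060183.6) at chr5:92359544-92365485. The other three members stand alone: Cxcl12 (ENSMUSG00000061353.11) at chr6:117168535-117181367, Cxcl14 (ENSMUSG00000021508.11) at chr13:56288643-56296551 and Cxcl16 (ENSMUSG00000018920.11) at chr11:70453983-70459984. Art3, a gene on the opposite strand, overlaps Cxcl10 and Cxcl11. It held 50.05, 5 and 9 expected counts in replicates 1, 2 and 3, against 33636, 15065 and 22107 for Cxcl10. Zmynd15, on the opposite strand to Cxcl16, held 333.67, 402.31 and 361.71. Whether the counting used strand was not stated, so reads of a gene and its antisense partner cannot be told apart with certainty.

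The sequence before the start site is shown for the members that hold matches to kB-type motifs, the binding sites of NF-kB. RefSeq promoter sequences on GRCm38.p6 were found for 8 of the 10 members, Cxcl11 and Cxcl16 being the other two. In the 250 bases before the start site, both strands were searched for the kB-type motif GGNNNTTCC, the interferon-stimulated response element core GAAANNGAA, the gamma-activated motif TTCNNNGAA and the core promoter motif TATAAA. Capitals mark every match. Each sequence runs 5′ to 3′ along the strand of the gene and ends at the base before the start site.
Cxcl1, chr5:90890995-90891244, plus strand: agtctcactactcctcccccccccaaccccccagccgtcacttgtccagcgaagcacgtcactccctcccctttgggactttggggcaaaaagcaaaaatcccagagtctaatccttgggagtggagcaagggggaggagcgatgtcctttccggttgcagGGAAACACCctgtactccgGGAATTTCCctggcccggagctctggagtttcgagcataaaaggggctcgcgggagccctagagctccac
Cxcl2, chr5:90903649-90903898, plus strand: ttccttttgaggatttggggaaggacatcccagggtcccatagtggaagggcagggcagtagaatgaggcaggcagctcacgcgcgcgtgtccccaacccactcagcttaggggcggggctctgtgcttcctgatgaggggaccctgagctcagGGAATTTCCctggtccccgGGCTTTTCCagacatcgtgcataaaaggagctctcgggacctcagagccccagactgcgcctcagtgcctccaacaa
Cxcl3, chr5:90785851-90786100, plus strand: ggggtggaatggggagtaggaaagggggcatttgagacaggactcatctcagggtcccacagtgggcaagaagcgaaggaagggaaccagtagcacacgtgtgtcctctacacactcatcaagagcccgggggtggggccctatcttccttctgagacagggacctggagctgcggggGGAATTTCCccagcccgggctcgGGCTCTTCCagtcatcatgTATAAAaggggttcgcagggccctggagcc
Cxcl9, chr5:92328080-92328329, minus strand: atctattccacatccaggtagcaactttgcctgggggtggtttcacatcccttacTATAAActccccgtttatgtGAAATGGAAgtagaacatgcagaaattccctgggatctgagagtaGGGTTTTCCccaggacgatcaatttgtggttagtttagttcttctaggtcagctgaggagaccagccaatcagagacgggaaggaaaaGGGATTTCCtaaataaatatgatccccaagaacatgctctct
Cxcl10, chr5:92348890-92349139, minus strand: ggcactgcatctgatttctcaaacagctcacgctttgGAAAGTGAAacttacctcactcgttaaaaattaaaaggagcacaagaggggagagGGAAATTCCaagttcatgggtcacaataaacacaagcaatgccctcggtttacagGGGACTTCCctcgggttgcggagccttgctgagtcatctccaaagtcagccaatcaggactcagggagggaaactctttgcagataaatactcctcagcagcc
Cxcl1, Cxcl2, Cxcl3, Cxcl9 and Cxcl10 each held the kB-type motif at 2 positions, whereas Cxcl12, Cxcl14 and Pf4 held none. Among 27025 promoters of the same length, 15.6% held at least 1 match and 1.39% held matches at 2 or more positions. The share with a match was 19.3% among the 7421 promoters of genes detected in these libraries. Each NF-kB-type promoter held the same 9 letters, GGAATTTCC, which match on both strands, beginning 70, 96 and 72 bases before the start site in Cxcl1, Cxcl2 and Cxcl3. The response element core occurred in Cxcl9 and Cxcl10, beginning at −175 and −213, and also in Cxcl14, which is no interferon-type gene, at −172. It occurred in 7.16% of all promoters. The gamma-activated motif occurred in Cxcl14 alone among these 8, beginning at −191, and in 7.18% of all promoters. TATAAA was found in Cxcl3 at −30 and in Cxcl9 at −195, and in 13.0% of all promoters. A match of letters is a description and not a bound site. The RefSeq start sites of Cxcl1 and Cxcl2 lie inside the genes as GENCODE draws them, that of Cxcl2 further in, and that of Cxcl3 lies just before its gene. Positions are therefore offset between these genes, most for Cxcl2.

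**Figure D1:**
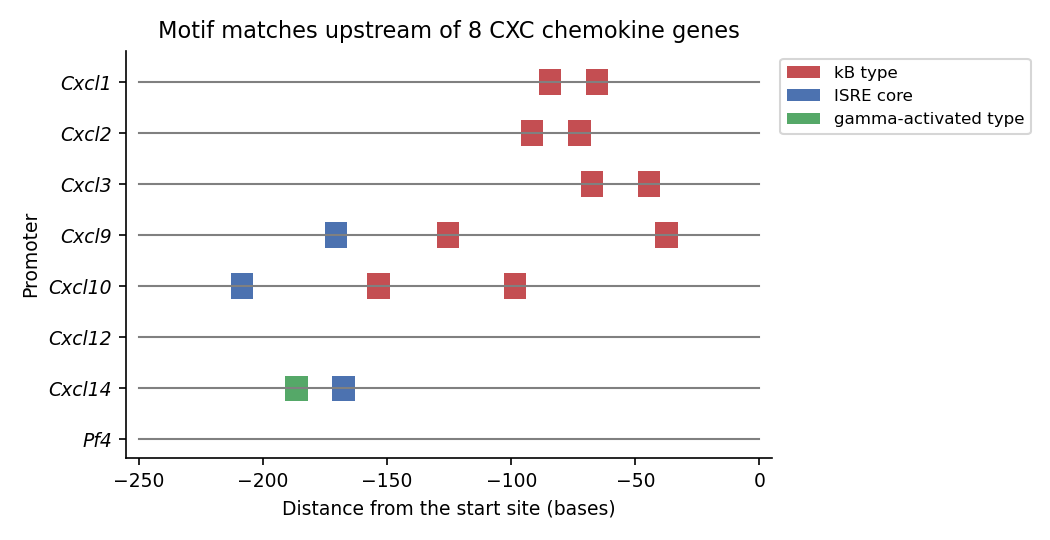
Positions of motif matches in the 250 bases before the start site of 8 members; the horizontal axis is the distance from the start site in bases, each line is a promoter, and boxes mark matches on either strand. Cxcl1, Cxcl2, Cxcl3, Cxcl9 and Cxcl10 each hold 2 kB-type boxes, and Cxcl12 and Pf4 hold no box; the core promoter motif is not drawn.

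The ends of the mRNAs set the NF-kB type apart from the interferon type, which the kB-type matches did not do for Cxcl9 and Cxcl10. AU-rich elements, repeats of ATTTA in the 3′ UTR, mark many inflammatory mRNAs for decay, and the nonamer TTATTTATT is a strong form of them. The leading transcript of Cxcl2 held ATTTA 11 times in a 3′ UTR of 734 bases, Cxcl1 7 times in 592 bases and Cxcl3 5 times in 645 bases. The nonamer occurred 4, 2 and 1 times in Cxcl2, Cxcl1 and Cxcl3, and in no other member. Of 20672 genes with a 3′ UTR of at least 50 bases, 6.89% held the nonamer and 18.3% held 5 or more ATTTA. The first nonamer of each is printed with its surroundings, the nonamer in capitals.
Cxcl1: atgtatTTATTTATTccacaa
Cxcl2: gttcacTTATTTATTtatcta
Cxcl3: cagttgTTATTTATTgaaatg
Among the interferon type, Cxcl9 held ATTTA 3 times in 2452 bases, Cxcl10 2 times in 729 bases and Cxcl11 1 time in 1218 bases. Of the constitutive group, Cxcl12 held it 4 times in 5188 bases, Cxcl16 2 times in 1421 bases, Pf4 1 time in 123 bases and Cxcl14 0 times in 1149 bases. No transcript of Cxcl12 had counts, so its transcript was taken by name order and not by level. Per kb, Cxcl2, Cxcl1 and Cxcl3 had 14.99, 11.8 and 7.75 pentamers against a median of 1.16 over all genes. Pf4 had 8.13 per kb, from its single pentamer in a short UTR.

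**Figure D2:**
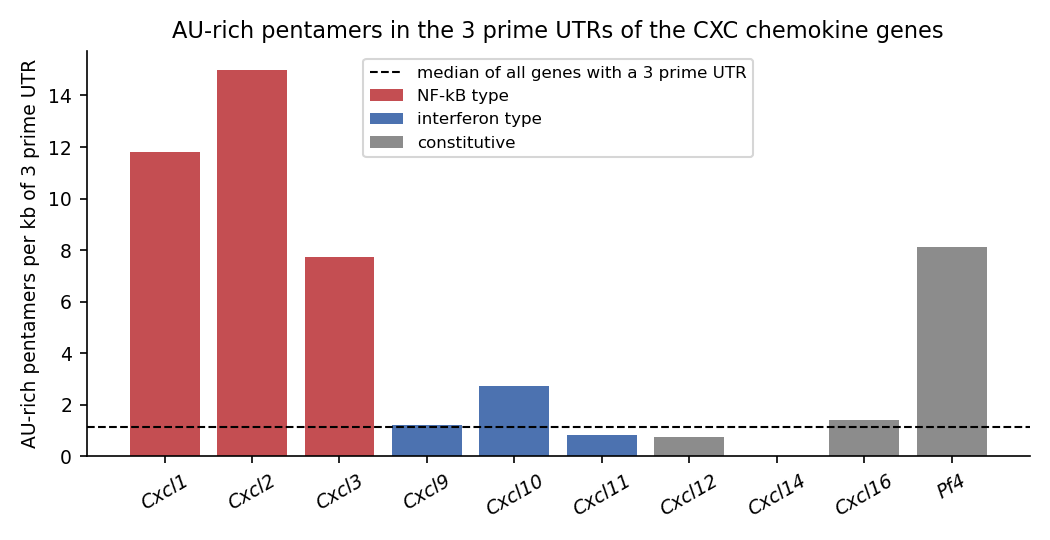
Number of AU-rich pentamers per kb of 3′ UTR in the leading transcript of each member, as bars coloured by group; the dashed line is the median over 20672 genes. For Cxcl12, which had no counts, the transcript was taken by name order. Cxcl1, Cxcl2 and Cxcl3 stand far above the line, the interferon type lies between 0.82 and 2.74 per kb, and the bar of Pf4 rests on 1 pentamer.

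The level of the members was compared between genes in TPM, which corrects for transcript length. Nuclear protein-coding genes held only 34.3%, 27.8% and 27.8% of the TPM in replicates 1, 2 and 3, which lowers the TPM of every mRNA. A gene was called detected at 1 TPM or more in every library. By that rule 6 of 10 members were detected, Cxcl2, Cxcl9, Cxcl10, Cxcl11, Cxcl16 and Pf4, beside 41.4% of all protein-coding genes. Cxcl11 is not annotated as protein-coding, so it is not among the genes of that share. Cxcl10 led, followed by the constitutive Pf4 and Cxcl16, with Cxcl9, Cxcl11 and Cxcl2 far lower. Cxcl10 exceeded Pf4, Cxcl16 exceeded Cxcl9, and Cxcl2 exceeded Cxcl1 and Cxcl1 exceeded Cxcl3 without overlap of the library ranges. The ranges of Pf4 and Cxcl16 overlapped, although Pf4 was above Cxcl16 in 3 of 3 libraries. Those of Cxcl9, Cxcl11 and Cxcl2 overlapped, as did those of Cxcl3 and Cxcl14.

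**Figure D3:**
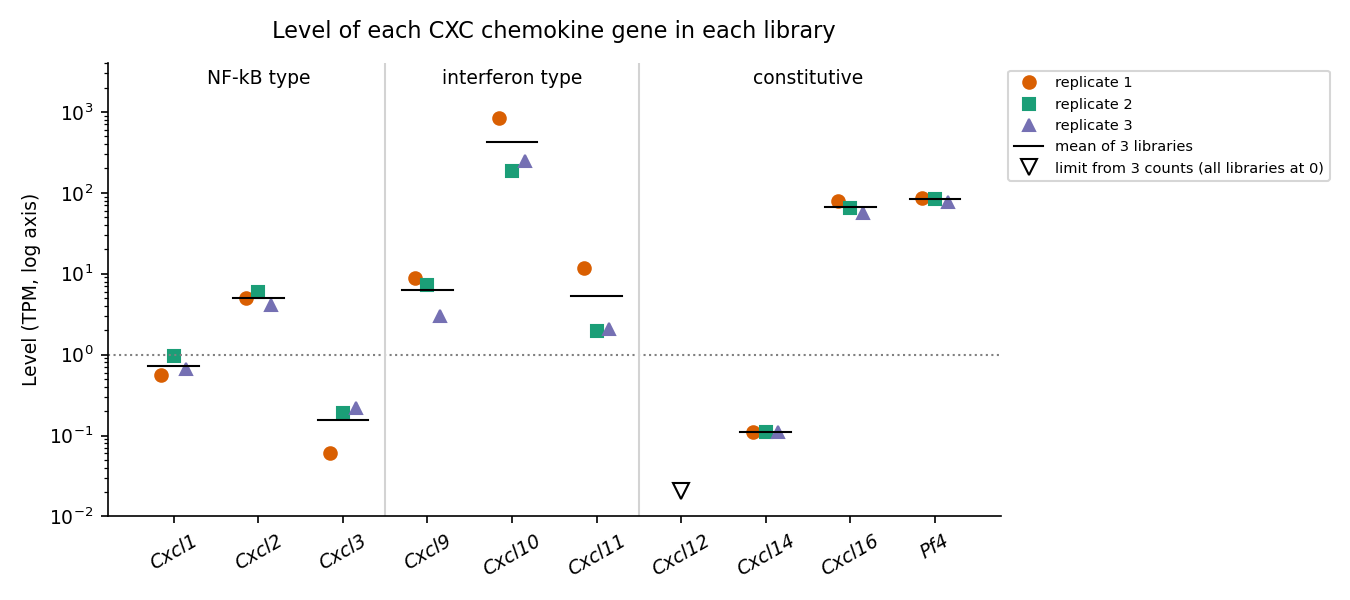
Level of each member in TPM on a log axis; circles, squares and triangles are replicates 1, 2 and 3, horizontal bars are means, the dotted line is 1 TPM and the open triangle is the level that 3 counts would give for Cxcl12. Cxcl10 is highest in every library, and the points of Cxcl10 and Cxcl11 for replicate 1 lie far above the other two.

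The neutrophil-attracting ligands were low beside Cxcl10, Pf4 and Cxcl16, although the mean of Cxcl2 ranked 6188 among 22015 nuclear protein-coding genes. Cxcl2 held 214, 501 and 392 expected counts, or 5.04, 5.88 and 4.12 TPM, in replicates 1, 2 and 3 (5.01 ± 0.880 TPM, SD, n = 3). Cxcl1 stood at 0.56, 0.97 and 0.67 TPM from 19, 70 and 51 counts (0.733 ± 0.212). Both were highest in replicate 2. Cxcl3 had 2, 15 and 18 counts, or 0.06, 0.19 and 0.22 TPM. At these counts the 95% Poisson interval for Cxcl3 in replicate 1 ran from 0.00677 to 0.202 TPM and met that of replicate 2, from 0.105 to 0.31. Overlap of intervals is not a test of a difference. Cxcl3 did not pass the filter on low counts, and without that filter its adjusted p in the chi-square test described below was 0.0946. Intervals cover counting error only. Cxcl2 was 9, 6.06 and 6.15 times as high as Cxcl1, so the order of the NF-kB-type genes held in each library.

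The ligands of Cxcr3 spanned a far wider range. Cxcl10 stood at 851, 185 and 251 TPM in replicates 1, 2 and 3, from 33636, 15065 and 22107 counts (429.0 ± 367 TPM, SD, n = 3). Its mean ranked 64 among 22015 nuclear protein-coding genes. Replicate 1 was high, and replicate 3 stood above replicate 2. Cxcl9, which interferon-gamma induces strongly, stood at 8.8, 7.27 and 3.04 TPM (6.37 ± 2.98). Here replicates 1 and 2 were close and replicate 3 was low. Cxcl11 stood at 11.9, 1.98 and 2.05 TPM (5.32 ± 5.72), high in replicate 1 only. The annotation classes Cxcl11 as a polymorphic pseudogene, and C57BL/6 mice are known to carry a frameshift in it, so this RNA is no measure of protein. Cxcl10 exceeded Cxcl11 71.4-, 93.4- and 122-fold and Cxcl9 96.8-, 25.4- and 82.5-fold. Which of Cxcl9 and Cxcl11 was higher differed between libraries, with Cxcl9 at 0.738, 3.67 and 1.48 times Cxcl11.

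Of the constitutive group, 2 genes were abundant and the other two nearly or wholly absent. Pf4, platelet factor 4, is stored in platelet granules and is also made by macrophages. It stood at 86.7, 84.7 and 77.8 TPM (83.1 ± 4.71, SD, n = 3) from 1284, 2653 and 2773 counts. Markers of megakaryocytes and platelets were low: 0 of 9 were detected, Gp9 and Gp1bb had 0 counts, the highest, Tubb1, had 19, 29 and 22 counts (0.35, 0.26 and 0.18 TPM), and the summed level of the 9 ran from 0.39 to 0.88 TPM. Cxcl16, made as a membrane-bound ligand and scavenger receptor, stood at 79.0, 65.1 and 56.8 TPM (66.9 ± 11.2). Cxcl14 had 8, 16 and 18 counts, 0.11 TPM in each library. Cxcl12, the ligand of Cxcr4 made by marrow stroma, had 0 counts in every library, and 3 counts would have given at most 0.0207 TPM. Fibroblast and stroma markers were low too, with 0 of 8 detected and a summed level of 0.04 to 0.18 TPM.

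Summed over each group, the interferon type reached 872, 194 and 256 TPM and the NF-kB type 5.66, 7.04 and 5.01 TPM in replicates 1, 2 and 3. The interferon type was thus 154-, 27.6- and 51.1-fold higher, a log2 ratio of 5.91 ± 1.26 (SD, n = 3), and without replicate 1 the mean ratio was 5.23. Cxcl10 made up most of the interferon-type sum. Cxcl9 and Cxcl11 together held 20.7, 9.25 and 5.09 TPM, so without Cxcl10 the interferon-type sum in replicate 3 was close to the NF-kB-type sum. Without the highest gene of each type, which leaves out Cxcl2 as well as Cxcl10, the log2 ratio was 3.52. Between the median genes it was 3.17. In both settings the NF-kB side rested on genes that were not detected, Cxcl1 and Cxcl3 in the former and Cxcl1 in the latter. Cxcl10 made up 81.6%, 52.7% and 63.4% of the summed TPM of the 10 members. Pf4 made up 8.31%, 24.1% and 19.7%, and Cxcl16 7.57%, 18.5% and 14.4%.

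Levels were compared between libraries as CPM, counts scaled to the same library total, since TPM is also set by the share of short RNAs. The question was whether libraries of 1 group differed by more than counting error, asked with a chi-square test of expected counts and Benjamini-Hochberg adjustment over all genes tested. Of the 10 members 8 passed the filter on low counts, Cxcl3 and Cxcl12 being the other two. Of these, 7 differed between libraries, beside 72.7% of all 12515 genes tested, so the share of members is close to the background. Cxcl14 did not pass (chi-square test, Benjamini-Hochberg adjusted p = 0.873), and Cxcl1 passed by the least margin (adjusted p = 0.00532). The test weighs depth, and the abundant Cxcl16 passed with an adjusted p of 4.31e-07 although its CPM values of 215, 226 and 211 were nearly level. Leaving out replicate 1, 2 or 3 left 4, 4 and 6 members, beside 40.8%, 59.8% and 63.2% of all genes. Cxcl1, Cxcl11 and Pf4 were lost without replicate 1, Cxcl1, Cxcl2 and Cxcl16 without replicate 2, and Cxcl9 without replicate 3. Cxcl10 alone passed in each of the 3 pairs of libraries.

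Cxcl10 and Cxcl11 were set apart by replicate 1. Cxcl10 stood at 1052, 284 and 387 CPM and Cxcl11 at 27.3, 5.74 and 5.99 CPM. On the log2 CPM scale, with TMM scaling, replicate 1 exceeded the mean of the other two by 1.72 for Cxcl10 (3.28-fold) and by 2.26 for Cxcl11 (4.79-fold), against a median of −0.01 over all genes. Of the 8 members tested 2 were over 2-fold higher in replicate 1, beside 5.12% of all genes, and these differences lay at the 98.0th and 98.8th percentile of all genes. Cxcl9 stood at 33.7, 34.2 and 14.6 CPM. Its replicate 1 exceeded the mean of the other two by 0.64 (1.56-fold, the 89.9th percentile), with replicates 1 and 2 level and replicate 3 lower than replicate 2 by 1.21 on the log2 scale. Beside these differences stand the nuclear-retained RNAs given above and the endothelial markers, whose summed level was 17.8, 9.98 and 6.41 TPM. Of those 5 markers 2 were detected, Kdr at 11.1, 4.03 and 3.08 TPM and Vwf at 4.78, 4.86 and 2.1 TPM. Pecam1 had 196, 165 and 271 counts, Cdh5 54, 41 and 75 and Tek 1, 0 and 1. The 4 of them tested were higher in replicate 1 than the mean of the other two, with a median log2 difference of 0.74. Their part in the difference was not tested. Neutrophil markers were detected in 2 of 8 cases, S100a9 at 5.45 ± 1.21 and S100a8 at 3.04 ± 1.01 TPM (SD, n = 3), Ly6g and Retnlg had 0 counts, and lymphocyte markers were detected in 0 of 5. For the other members tested, replicate 1 minus the mean of the other two libraries was −0.78 for Cxcl1, −0.25 for Pf4, −0.22 for Cxcl2 and Cxcl14, and 0.02 for Cxcl16.

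**Figure D4:**
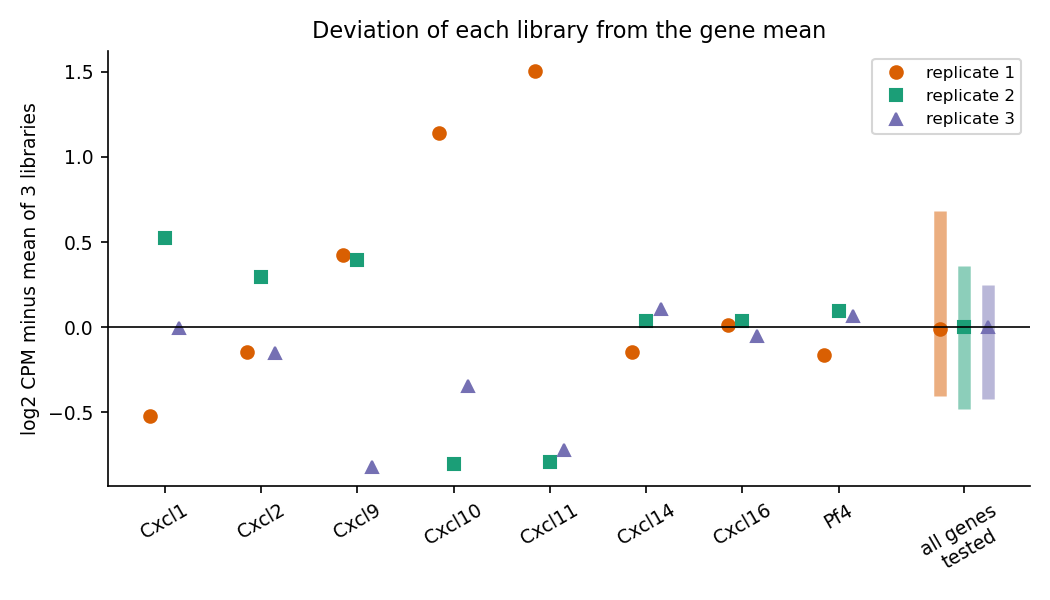
Log2 CPM of each library minus the mean of the 3 libraries for the 8 members tested; symbols are replicates 1, 2 and 3, and the bars at the right span the 5th to 95th percentile of all 12515 genes tested with the median as a symbol. Replicate 1 lies at 1.14 for Cxcl10 and 1.51 for Cxcl11, above the bar of all genes, and replicate 3 lies at −0.82 for Cxcl9, below it.

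The spread between libraries can be put as a biological coefficient of variation (BCV), the relative spread that counting does not account for. It was 0.460 for Cxcl10 and 0.581 for Cxcl11, against a median of 0.172 over all genes. Cxcl1 had 0.387, from only 19, 70 and 51 counts. Cxcl9 had 0.311 and Cxcl2 0.222. Cxcl14 had 0.322 from at most 18 counts, though its counts did not differ beyond counting error (chi-square test, Benjamini-Hochberg adjusted p = 0.873). Each BCV is drawn by edgeR toward that of genes of like level, so this value is no excess spread measured for Cxcl14. For the same reason the value of Cxcl1 cannot be read as the spread of that gene alone. Cxcl16 and Pf4 had 0.134 and 0.128, below the median. The 2 abundant constitutive genes thus had a lower BCV than most genes, as a description of these 3 libraries. The median level of all genes tested was 5.27 TPM, and no comparison with genes of like level was made.

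The totals were also split by transcript. Cxcl10-201, the spliced protein-coding mRNA, made up 98.6%, 99.3% and 99.4% of the Cxcl10 TPM in replicates 1, 2 and 3. Its own counts of 33056.44, 14995.7 and 22009.71 gave a 3.24-fold excess in replicate 1, beside 3.28-fold for the whole gene. Retained-intron transcripts made up 1.53%, 0.215% and 0.234% of the Cxcl10 counts. Over 5912 genes with such a transcript the median shares were 2.82%, 0.363% and 0.364%, and 83.9% of those genes were highest in replicate 1. For Cxcl11, the protein-coding model Cxcl11-201 made up 88.8%, 87.1% and 88.0% of the TPM and was 4.97-fold higher in replicate 1. The remaining Cxcl11 level lay on Cxcl11-202, at 11.2%, 12.9% and 12.0%.

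Cxcl16 was split between 2 main transcripts in every library. Cxcl16-201, which encodes the membrane-bound ligand, made up 59.1%, 64.4% and 70.6% of its TPM. Cxcl16-202, annotated as a target of nonsense-mediated decay, made up 38.1%, 33.9% and 27.9%. The share of Cxcl16-202 was highest in replicate 1 and lowest in replicate 3. Cxcl2 rested on Cxcl2-201 at 94.4%, 97.5% and 94.2%. Pf4-201 made up 87.8%, 85.2% and 99.97% of the Pf4 TPM. The rest lay on the short retained-intron model Pf4-202 at 12.0%, 14.3% and 0.03%, which the kallisto table did not share, with 3.04%, 0% and 0%.

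**Figure D5:**
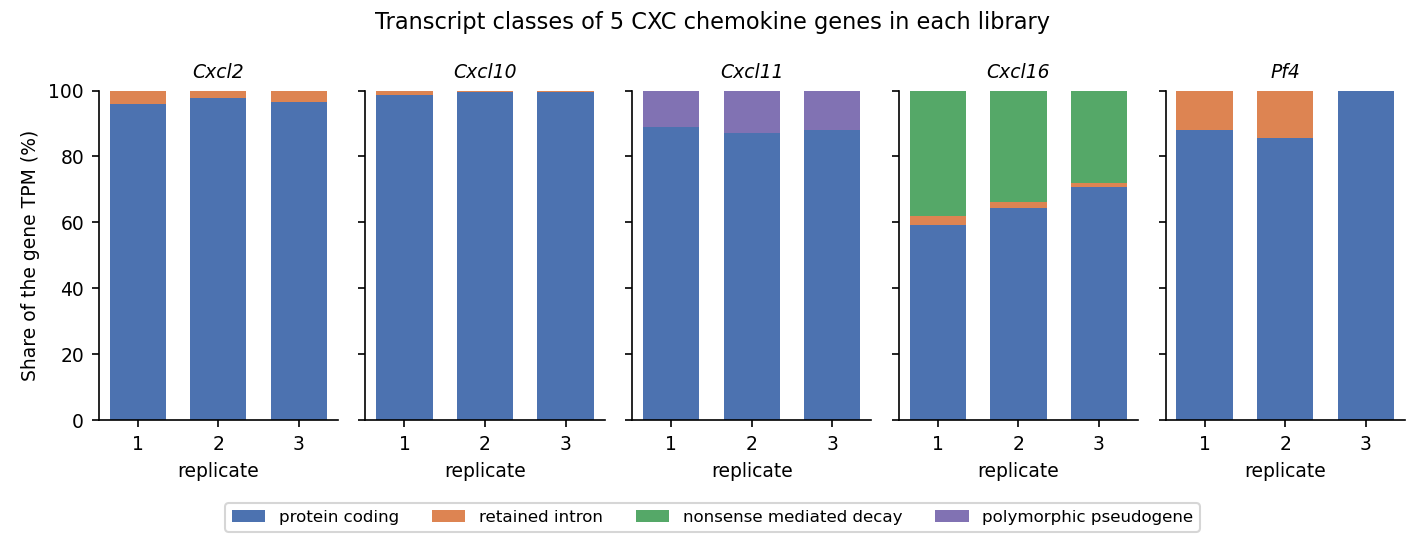
Share of each gene's TPM, in percent, held by transcripts of each annotated class in replicates 1, 2 and 3 for 5 members. Cxcl10 and Cxcl2 are nearly all protein-coding, 11.2% to 12.9% of Cxcl11 is polymorphic pseudogene, Cxcl16 carries 27.9% to 38.1% of a transcript annotated for nonsense-mediated decay, and the retained-intron part of Pf4 is seen in replicates 1 and 2 of this quantification.

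Receptors of the family were mostly absent. Cxcr4, the receptor of Cxcl12, stood at 6.03, 8.6 and 4.43 TPM (6.35 ± 2.10, SD, n = 3), and Cxcr3, the receptor of the interferon type, at 2.22, 2.39 and 2.37 TPM (2.33 ± 0.0929). These were the 2 of 8 receptors detected. Cxcr4 RNA was thus detected where its ligand Cxcl12 had 0 counts, and Cxcr3 RNA together with RNA of all 3 interferon-type genes. Of these, Cxcl11 is the gene with the frameshift named above, so its RNA is no measure of a ligand. Cxcr2, the receptor of the NF-kB type, had 1, 0 and 3 counts, and Cxcr1 0, 1 and 2. Cxcr6, the receptor of Cxcl16, had 63, 1 and 5 counts, or 0.82, 0.01 and 0.03 TPM, nearly all of it in replicate 1. Cxcr5, the receptor of Cxcl13, had 5, 1 and 5 counts, and the scavenging receptors Ackr1 and Ackr3 had 0 in every library.

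None of 7 other CXC and related ligands was detected. Cxcl13 and Cxcl15 had 0 counts in every library. Cxcl5 had 2, 0 and 0 counts and Ppbp, a platelet chemokine next to Pf4, had 8, 4 and 8. Cxcl17 had 1, 0 and 0, Xcl1 1, 0 and 1, and Cx3cl1 4, 6 and 11. Of 5 enzymes that cut chemokines, 3 were detected. Adam17, at 31.1 ± 4.71 TPM, and Adam10, at 20.1 ± 1.64, shed Cxcl16 from the membrane. Mmp12, a macrophage elastase, stood at 5.09 ± 0.415 and Mmp9 at 0.07 ± 0.03 TPM (SD, n = 3).

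Regulators known to act on the NF-kB-type and interferon-type genes were mostly detected. In the NF-kB arm 9 of 10 genes were detected. Nfkbia, the inhibitor, stood at 66.5 ± 18.5 TPM, Nfkb1 at 24.8 ± 5.16, and the deubiquitinase Tnfaip3 at 22.6 ± 8.95 (SD, n = 3). The lowest, Nfkbid, was the gene not detected, at 1.59, 1.29 and 0.93 TPM. In the interferon arm 11 of 12 were detected. Irf7 stood at 729 ± 255 TPM, and Stat2 at 146 ± 56.0 (SD, n = 3). The lowest, Ifnb1, which encodes interferon-beta, was the gene not detected. It stood at 4.04, 0.79 and 0.97 TPM, 3.65-fold higher in replicate 1 on the TMM-scaled CPM. It was the 1 gene of 12 in its arm over 2-fold higher there. Of the interferon arm 9 of 12 and of the NF-kB arm 8 of 10 were highest in replicate 1, beside 39.8% of all genes tested, with median log2 differences of 0.09 and 0.28. Genes of chemokine mRNA decay, which include the AU-rich element binding proteins, were detected in 9 of 10 cases. Zfp36 stood at 47.1 ± 8.13 TPM, Hnrnpd at 41.2 ± 4.59, and Zfp36l1 at 39.6 ± 3.80 (SD, n = 3). The lowest, Traf3ip2, was the gene not detected, at 1.21, 0.87 and 1.35 TPM. Of that list 6 of 10 were highest in replicate 1, with a median difference of 0.07.

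The nearest detected neighbours differed from the members in level. Sdad1, 10.9 kb from Cxcl9, stood at 2.41 ± 0.293 TPM, and Mthfd2l, 25.2 kb from Cxcl2, at 1.14 ± 0.0721 (SD, n = 3). For Cxcl11 the nearest was Cxcl10 at 10.7 kb, for Cxcl10 it was Cxcl9 at 18.6 kb, for Cxcl1 it was Cxcl2 at 10.8 kb, for Cxcl3 it was Pf4 at 12.7 kb and for Pf4 it was Cxcl2 at 130 kb. Outside the clusters, Tifab lay 110 kb from Cxcl14 at 14.7 ± 0.526 TPM, and Zmynd15, overlapping Cxcl16, stood at 2.59 ± 1.28 TPM. No protein-coding gene lay within 200 kb of Cxcl12.

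Genes whose levels moved most like a member were sought by the distance between centred log2 CPM over the 3 libraries, among 4319 or 4320 genes with a mean of at least 10 TPM. Nearest to Cxcl10 were BC023105, a processed pseudogene, at a distance of 0.01, then Zup1 at 0.16, the small Cajal body RNA Scarna2 at 0.17, Abcc5 at 0.17 and the small nucleolar RNA Rnu3b4 at 0.29. Of these 5, 3 are RNAs that are not annotated as protein-coding, and the share of such genes among all candidates was not counted. Rnu3b4 rested on few reads, with log2 CPM of 1.31, −0.88 and −0.58 in replicates 1, 2 and 3. Nearest to Cxcl16 were Mknk1, Nabp1, Smap1, Ndufs5 and Shisa5, at distances of 0.00220 to 0.00953. Among the nearest to Cxcl2 were Sap18, Hscb, Rps16 and Itga6, at 0.0146 to 0.0320. Rps16 has processed pseudogenes and BC023105 is annotated as one, so reads can be split between near-identical copies and their values are uncertain. With 3 libraries many genes share any profile, and the distances are a description.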

How the data were processed

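Expected counts per gene and per transcript were deposited by the authors for 3 libraries, with mm10 as the genome and GENCODE M21 as the annotation, per the file headers and accompanying notes. The authors deposited TPM beside them and the share of each transcript as a percent of its gene, per the file headers, whose column names are those of RSEM. A further deposited transcript table holds estimated counts and TPM with the column names of kallisto. No tool version or strand setting was found in the labels or headers. All 55536 gene identifiers were in the annotation. Entries that name no gene held 0.435%, 0.134% and 0.0823% of the counts in replicates 1, 2 and 3 and stayed out.

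Expected counts were rounded for the chi-square test of each gene against a single rate, with library totals as scaling, over genes that passed the filterByExpr function of edgeR 4.0.16 in R 4.3.3 (adjusted p under 0.05). With 1 group no fit between conditions exists, and edgeR gave TMM, log2 CPM (prior count 2) and BCV. The test was tested on simulated data. Intervals are exact Poisson intervals, and 3 counts set the limit for genes at 0. DESeq2 1.42.0 gave alternative size factors.

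The members and lists were chosen with earlier results of these data known. Named are the 10 members, all other ligands and receptors, the 3 highest and the lowest of each other list, the 5 nearest patterns of Cxcl10, Cxcl16 and Cxcl2, and each nearest detected neighbour. Some genes that the rule selects are not reported here. Genes named beyond the rule were chosen after their values were seen. Chemokine proteins were not used here.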

Additional observations from a re-analysis of the deposited data

How the results depend on the processing

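The number of members detected was 3 at 5 TPM (Cxcl10, Cxcl16 and Pf4) and 5 to 7 under the other settings tried. Kallisto TPM left out Cxcl11 and gave 5, while 0.5 TPM, 10 counts and TPM over nuclear protein-coding genes added Cxcl1 and gave 7. Members varying beyond counting error numbered 7 under TMM, DESeq2 size factors, no filter and kallisto counts, and 4 to 6 when a library was left out. All genes varying numbered 8945 to 11760 under those settings and 5112 to 7907 when a library was left out, the lowest without replicate 1. The genes tested also differed in number: 11760 was 53.1% of 22148 without the filter, and kallisto counts gave 79.8% of 13564. The main setting gave 72.7% of 12515. No filter and kallisto counts each tested 9 members, beside 8 in the main setting. The log2 ratio of interferon-type to NF-kB-type TPM was 3.17 between median genes, 3.52 without the highest gene of each type, and 5.23 to 6.47 when a library was left out. It kept its sign under these settings, none of which left out Cxcl10 while keeping Cxcl2. The differences of replicate 1 for Cxcl10 and Cxcl11 kept their direction under every scaling. That of Cxcl16, 0.02, was −0.02 without scaling beyond the library total, and −0.08 for Cxcl16-201 alone, a setting chosen after seeing the data. Of the adjusted p-values of single members under the alternatives, 49 kept their side of the threshold and 7 lost significance, all on leaving out a library. No paired analysis was possible because the libraries form 1 group. Depth limits Cxcl3 and Cxcl14, with at most 18 counts.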

Other observations

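The 2 deposited quantifications disagreed on short retained-intron transcripts of the members. On Cxcl9-202, a model of 370 bases, the kallisto table placed 29.4%, 34.4% and 16.6% of the Cxcl9 TPM in replicates 1, 2 and 3. The RSEM-type table placed 0% of the TPM and 0 counts on it. Of the kallisto counts of Cxcl9, only 2.13%, 3.00% and 1.11% lay there, so the short length raised the TPM share. For Pf4 the reverse held: Pf4-202, of 360 bases, held 12.0%, 14.3% and 0.03% of the TPM in the RSEM-type table and 3.04%, 0% and 0% in the kallisto table. Of the Pf4 counts it held 4.76%, 6.14% and 0.0123% in the former and 1.20%, 0% and 0% in the latter. Cxcl16-202 was given similar shares by both, 38.1%, 33.9% and 27.9% against 39.4%, 36.1% and 28.4%. Cxcl10-201 was given 98.6%, 99.3% and 99.4% in the RSEM-type table and 98.6%, 99.6% and 99.5% in the kallisto table.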
